A study of Mus musculus with 2 samples.

Results

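Immediate early transcription factors are encoded by genes that a growth factor or stress signal switches on within minutes, without new protein synthesis, and whose mRNAs usually decay soon after. The 10 genes examined were Fos, Fosb, Fosl1 and Fosl2 of the FOS family, Jun and Junb of the JUN family, Egr1 and Egr2 of the EGR family, Ier2 and Myc. They were taken by gene symbol, 10 of the 26082 genes in the deposited tables, and not by a threshold on their values. Earlier results of these data were known when they were chosen. FOS and JUN proteins pair through a leucine zipper to form the AP-1 transcription factor, EGR proteins bind GC-rich DNA through zinc fingers, and MYC acts with its partner MAX on genes of growth and ribosome production. ERK phosphorylates ternary complex factors that work with SRF at CArG boxes, and cAMP acts through CREB at CRE sites, so the RNA of these genes is often read as a trace of recent signaling. In fibroblasts and preadipocytes they are known to surge briefly after serum or an adipogenic cocktail and to settle at lower levels later.

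The samples were primary fibro-adipogenic progenitors (FAPs), wild-type stromal cells of mouse muscle that can turn into adipocytes, sorted from hind limbs. One culture was transfected with a plasmid for TGFBR3, a coreceptor for TGF-β, and the other with the vector, and both received adipogenic induction medium with 20% FBS, 10 μg/ml insulin, 0.25 μM dexamethasone and 0.5 mM IBMX, which raises cAMP. The labels give neither the promoter of the plasmid nor the hours between medium change and RNA extraction, a limit for genes that peak and fade. Each condition had 1 library, of 62321027 and 83779203 counts, so no difference could be tested and all intervals cover counting error only. Tgfbr3 itself had FPKM values of 36.9 and 35.1, a log2 ratio of 0.07 (95% CI 0.04 to 0.10), so overexpression was not visible in this gene's own level and the libraries are named by their labels, TGFBR3 OE and control. The FAP markers Pdgfra (30.5 and 32.6) and Ly6a (1013 and 706) were plentiful in FPKM. Of 7 FAP markers, 5 were below 0 in log2 ratio, beside 36.7% of all genes averaging 1 FPKM or more. Col3a1, a collagen, was 2-fold lower (-1.05), and Col1a1, also a collagen, was 1.5-fold lower (-0.89). Macrophage markers summed to an FPKM of 0.73 and 0.47, with Adgre1 and Tyrobp at 0 counts in both, endothelial markers to 2.17 and 2.03, and 3 muscle markers to 1.15 and 0.81. In bulk RNA, fewer expressing cells and less RNA per cell cannot be told apart.

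Promoter sequence of 6 of the 10 genes was at hand from RefSeq (GRCm38.p6), and 3 windows are shown because Egr2 and Junb were lower and Fos higher in the library labelled TGFBR3 OE. Each window is the 250 bases before a transcript start, 5′ to 3′ on the gene's strand. Capitals mark the CRE core TGACG on either strand, the CArG box to which SRF binds, and the TATA box TATAAA. The Egr2 window, chr10:67537619-67537868 on the plus strand, is that of 1 of 5 starts listed for the gene. The Junb window is chr8:84978749-84978998 on the minus strand, and the Fos window is chr12:85473640-85473889 on the plus strand.
Egr2: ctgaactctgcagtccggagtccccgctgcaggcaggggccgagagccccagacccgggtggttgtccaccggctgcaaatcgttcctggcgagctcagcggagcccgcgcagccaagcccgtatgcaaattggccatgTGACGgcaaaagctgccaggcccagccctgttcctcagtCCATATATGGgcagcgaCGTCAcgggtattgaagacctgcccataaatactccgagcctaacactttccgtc
Junb: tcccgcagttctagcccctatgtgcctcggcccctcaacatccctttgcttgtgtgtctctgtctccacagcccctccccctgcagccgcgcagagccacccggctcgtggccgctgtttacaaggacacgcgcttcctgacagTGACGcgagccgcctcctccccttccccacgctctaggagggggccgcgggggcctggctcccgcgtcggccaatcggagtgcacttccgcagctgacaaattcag
Fos: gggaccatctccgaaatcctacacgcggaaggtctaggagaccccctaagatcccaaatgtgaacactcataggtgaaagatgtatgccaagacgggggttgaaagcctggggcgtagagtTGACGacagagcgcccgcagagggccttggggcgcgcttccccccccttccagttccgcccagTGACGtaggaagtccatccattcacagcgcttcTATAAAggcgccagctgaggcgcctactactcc

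The Egr2 window held a CArG box, 72 to 63 bases before the start, between a pair of CRE cores. Fos had CRE cores 129 and 66 bases before its start and a TATA box, and Junb a CRE core at 106 bases. A CArG box occurred in 1.47% of all 32851 windows of this length, TGACG in 17.8% and TATAAA in 12.4%. Among the 6 genes with a window, TGACG was found in 4 (Fos, Fosb, Junb and Egr2) and a CArG box in 1 (Egr2). These are counts of genes, beside shares of windows, and Egr2 gave 5 of the 10 windows searched. The Egr2 window shown was 1 that held both motifs. The window before the start at 67535499 held neither, and that before 67537566 held a CArG box but no TGACG. Egr1, Fosl1, Ier2 and Myc had no window and were not searched. Sequence further from the start was not searched in any gene, so a missing match does not show that a gene lacks the site. A match describes the letters and is no evidence of binding in these cells.

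In both libraries some members were abundant at the time of sampling and others scarce. In FPKM, which is scaled by gene length, the order in the library labelled control was Junb (80.6), Jun (34.8), Fosl1 (28.4), Fosl2 (24.0), Myc (17.0), Ier2 (16.7), Egr1 (5.70), Egr2 (3.40), Fos (1.94) and Fosb (0.57). Myc and Ier2 were the only neighbors in that order whose 95% Poisson intervals overlapped (16.5 to 17.5 and 16.0 to 17.4). Fos, the founding member of the family, and Fosb therefore stood at the bottom, while their relatives Fosl1 and Fosl2, which lack the strong activation domain of Fos, stood above 20 FPKM. In the library labelled TGFBR3 OE the order was the same except at 2 places, where Fosl1 (38.2) passed Jun (36.0) and Fos (2.40) passed Egr2 (1.29). No neighboring intervals overlapped there. These intervals leave out the choice of gene length, on which an order across genes also depends. For Fosl2 the joined exons hold 9680 bases and the longest coding transcript 6537.

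**Figure D1:**
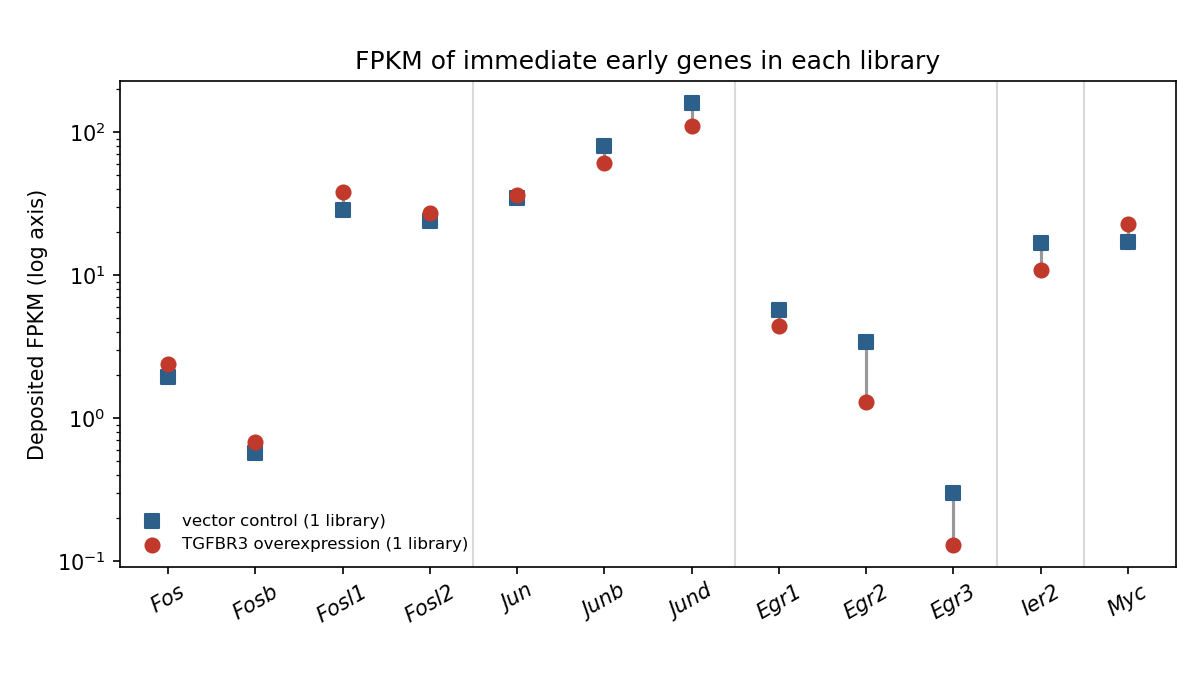
FPKM of the 10 members and of their relatives Jund and Egr3 (log axis) in the library labelled control (squares) and the library labelled TGFBR3 OE (circles), 1 library each. The EGR genes, Junb, Jund and Ier2 have the circle below the square, with the widest gap among the 10 members at Egr2 (3.40 to 1.29), while the FOS genes, Jun and Myc have it above. Fosb and Jun lie below 0 once the ratios are centred.

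Changes are given as the log2 ratio of (FPKM + 1), TGFBR3 OE over control, and where genes are low also as the plain ratio with nothing added. At 2-fold, none of the 9 members whose FPKM averaged 1 or more was called in either direction, against 1.03% of the 11213 genes tested for lower and 3.14% for higher. At 1.5-fold, 1 member, Egr2, was lower and none was higher, against 4.91% and 13.3% of all genes. With nothing added to the FPKM, 1 of the 9, again Egr2, was 2-fold lower and none was 2-fold higher, against 1.81% and 6.53% of genes. With 9 genes, 1 call in a background of a few percent says little about the group as a whole. The median log2 ratio of the 9 was 0.05, beside 0.14 for all genes tested, with 4 members below 0 and 5 above. Centred values below are those after subtraction of 0.13, the median ratio of the genes that reached 1 FPKM in each library.

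**Figure D2:**
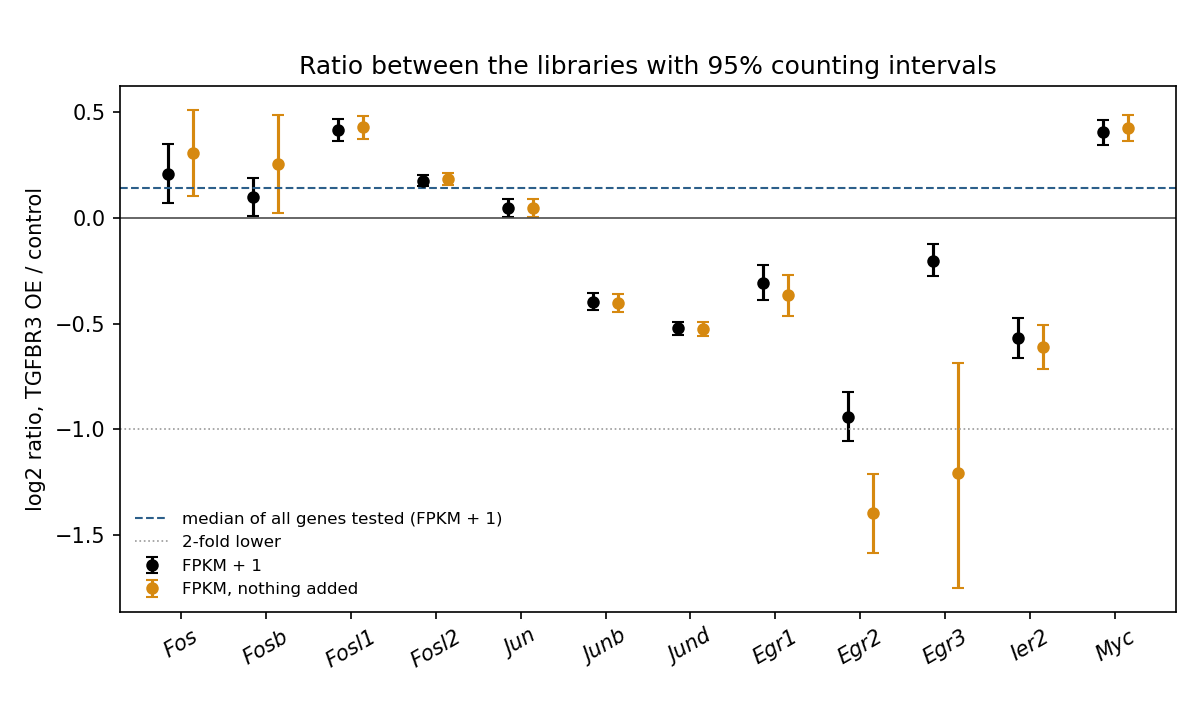
Log2 ratio between the libraries for the 10 members, Jund and Egr3, with 95% counting intervals, as (FPKM + 1) in black and as plain FPKM in orange. The dashed line is the median of all genes tested (0.14) and the dotted line is 2-fold lower. Egr2 reaches -0.94 and -1.40, and the low Egr3 moves from -0.20 to -1.21 when nothing is added.

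Of the EGR genes, Egr2 was lower past 1.5-fold and Egr1 was lower by less. Egr2 (ENSMUSG00000037868, mm10 chr10:67535475-67542188, plus strand), a zinc-finger factor known from Schwann cell myelination and from the early steps of adipogenesis, had FPKM values of 1.29 and 3.40 from 297 and 1069 counts. On the log2 scale this was -0.94 (95% CI -1.06 to -0.83), or -1.07 when centred, and the plain ratio was -1.40 (95% CI -1.59 to -1.21). Only 142 of the 11213 genes tested had a lower ratio, and Egr2 was the one member whose plain counting interval lay wholly past 2-fold. Egr1 (ENSMUSG00000038418), the most broadly induced of the family, had FPKM values of 4.42 and 5.70 from 1345 and 2360 counts, a log2 ratio of -0.31 (95% CI -0.39 to -0.23). The library labelled TGFBR3 OE was the lower one for both genes, but by unequal amounts. The FPKM of Egr2 was 0.29 of that of Egr1 in the library labelled TGFBR3 OE and 0.60 of it in the other, a difference of -1.03 in log2 ratio (95% CI -1.25 to -0.83) that no scaling between libraries can alter.

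The rest of the EGR circuit was also uneven. Egr3, a relative outside the 10, had 41 and 124 counts, with a plain ratio of -1.21 (95% CI -1.75 to -0.69), and Egr4 had 0 and 7 counts. Nab2, a corepressor that EGR proteins induce and that in turn restrains them, stood at 30.2 and 55.9 FPKM, a log2 ratio of -0.87 (95% CI -0.91 to -0.82). Its counts, 6035 and 15196, were far more than those of any EGR gene. Nab1, the other NAB corepressor, was higher, at 13.2 and 8.18 FPKM and a log2 ratio of 0.63 (95% CI 0.57 to 0.70). Of the 6 genes of the EGR and NAB list, 4 averaged 1 FPKM or more. Their median log2 ratio was -0.59, or -0.47 with the trend with GC content described below removed. At 1.5-fold, 2 of them (Egr2 and Nab2) were lower and 1 (Nab1) was higher, beside 4.91% and 13.3% of all genes tested. With that trend removed, Nab2 was at -0.73 and Nab1 at 0.40, the latter short of 1.5-fold.

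Within the JUN family, Junb and Jund were lower, by less than 1.5-fold, and Jun was almost level. Removal of the trend with GC content described below took Junb from -0.40 to -0.15 and Jund from -0.52 to -0.28 in log2 ratio. Junb (ENSMUSG00000052837, mm10 chr8:84974484-84978718, minus strand), a JUN protein with weak activation capacity, had FPKM values of 61.0 and 80.6 from 7480 and 13469 counts, a log2 ratio of -0.40 (95% CI -0.44 to -0.36). Jund, the JUN gene least dependent on stimulation and no member of the 10, had FPKM values of 111 and 160, the highest level of the family in both libraries, with a log2 ratio of -0.52 (95% CI -0.55 to -0.49). Jun (ENSMUSG00000052684, mm10 chr4:95049034-95052222, minus strand), the founding partner of Fos, had FPKM values of 36.0 and 34.8 from 7798 and 10262 counts. The log2 ratio of 0.05 (95% CI 0.01 to 0.09) became -0.08 when centred, so its direction depended on the scaling. Jun therefore took 17.3% of the summed FPKM of the 3 JUN genes in the library labelled TGFBR3 OE and 12.7% in the other. The Junb to Jun ratio of FPKM was 1.69 and 2.31, a log2 difference of -0.45 (95% CI -0.51 to -0.39). With the GC trend removed this gap was smaller, the plain ratios being -0.11 for Junb and 0.12 for Jun.

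The FOS family was slightly higher, most of all Fosl1, although Fosb was below 0 when centred and Fosl2 below 0 with TMM factors, another scaling of the libraries. Fosl1 (ENSMUSG00000024912, mm10 chr19:5447547-5455946, plus strand), which encodes FRA1, had FPKM values of 38.2 and 28.4 from 5272 and 5335 counts, a log2 ratio of 0.42 (95% CI 0.36 to 0.47), a centred value of 0.29 and a value of 0.20 with TMM factors. Among all genes tested, 2685 had a higher ratio, so the difference was modest. The FPKM of Fosl1 was 1.06 times that of Jun in the library labelled TGFBR3 OE and 0.82 times in the other, a log2 difference of 0.38 (95% CI 0.31 to 0.45). Fosl2 (ENSMUSG00000029135, mm10 chr5:32135801-32157842, plus strand), which encodes FRA2, had FPKM values of 27.3 and 24.0 from 17922 and 21487 counts, the largest counts of the 10. This made a log2 ratio of 0.18 (95% CI 0.15 to 0.20), which centring took to 0.05. The narrow interval of Fosl2 reflects its depth and not a replicate.

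Fos and Fosb were scarce. Fos (ENSMUSG00000021250, mm10 chr12:85473890-85477273, plus strand) had FPKM values of 2.40 and 1.94 from 385 and 422 counts, a log2 ratio of 0.21 (95% CI 0.07 to 0.35), a plain ratio of 0.31 (95% CI 0.10 to 0.51) and a centred value of 0.08. Fosb (ENSMUSG00000003545, mm10 chr7:19302696-19310051, minus strand) had FPKM values of 0.68 and 0.57 from 290 and 333 counts, a plain ratio of 0.25 (95% CI 0.02 to 0.49). It was the only member under a mean FPKM of 1. Beside Fos, Egr2 moved the other way: the ratio of Egr2 to Fos in FPKM was 0.54 in the library labelled TGFBR3 OE and 1.75 in the other, a log2 difference of -1.71 (95% CI -1.99 to -1.44). Summed over the family, the FPKM of the 4 FOS genes was 68.6 and 54.9, that of Jun, Junb and Jund was 208 and 275, and that of Egr1, Egr2 and Egr3 was 5.84 and 9.40. Fosl1 and Fosl2 together made up nearly the whole of the FOS sum in each library, with Fosl1 at 55.7% and 51.7% and Fosl2 at 39.8% and 43.7%.

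Ier2 and Myc differed in opposite directions. Ier2 (ENSMUSG00000053560, mm10 chr8:84661331-84662852, minus strand), a small nuclear regulator induced by serum, had FPKM values of 10.9 and 16.7 from 1130 and 2349 counts. The log2 ratio stood at -0.57 (95% CI -0.66 to -0.47), the plain ratio -0.61 (95% CI -0.71 to -0.51) and the centred one at -0.69. After Egr2 it was the lowest of the 10, with 581 genes below it. Myc (ENSMUSG00000022346, mm10 chr15:61985391-61990374, plus strand) had FPKM values of 22.8 and 17.0 from 4207 and 4264 counts, a log2 ratio of 0.41 (95% CI 0.35 to 0.46), a centred value of 0.28 and a value of 0.20 with TMM factors, and 2781 genes had a higher ratio. Both genes stood at nearly the same level in the library labelled control, and Myc was at 2.09 times the FPKM of Ier2 in the library labelled TGFBR3 OE.

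Base composition moved with these ratios. Over 11207 genes the log2 ratio was lower where exons held more GC, with bin medians running from 0.45 down to -0.25 over 20 GC bins (Spearman's rho -0.47 across genes). Over the 10 members, which share the same libraries, rho was -0.30. Junb (62.6% GC) and Ier2 (60.9%) fell in the highest bin, where 195 and 115 of 561 genes had a lower ratio than theirs. With the trend removed, Ier2 was at -0.32, and Junb and Jund (67.1% GC) also moved toward 0 by the amounts given above. Egr2, at 53.6% GC, lay in a bin with a median of -0.01, where 10 of 561 genes were lower, and its value was -0.94 with the trend removed. Egr1 was at -0.21, whereas Fosl1 (0.51) and Myc (0.47) were further from 0 than before. In their own bins, 515 of 560 genes had a lower ratio than Fosl1 and 496 of 560 a lower ratio than Myc.

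**Figure D3:**
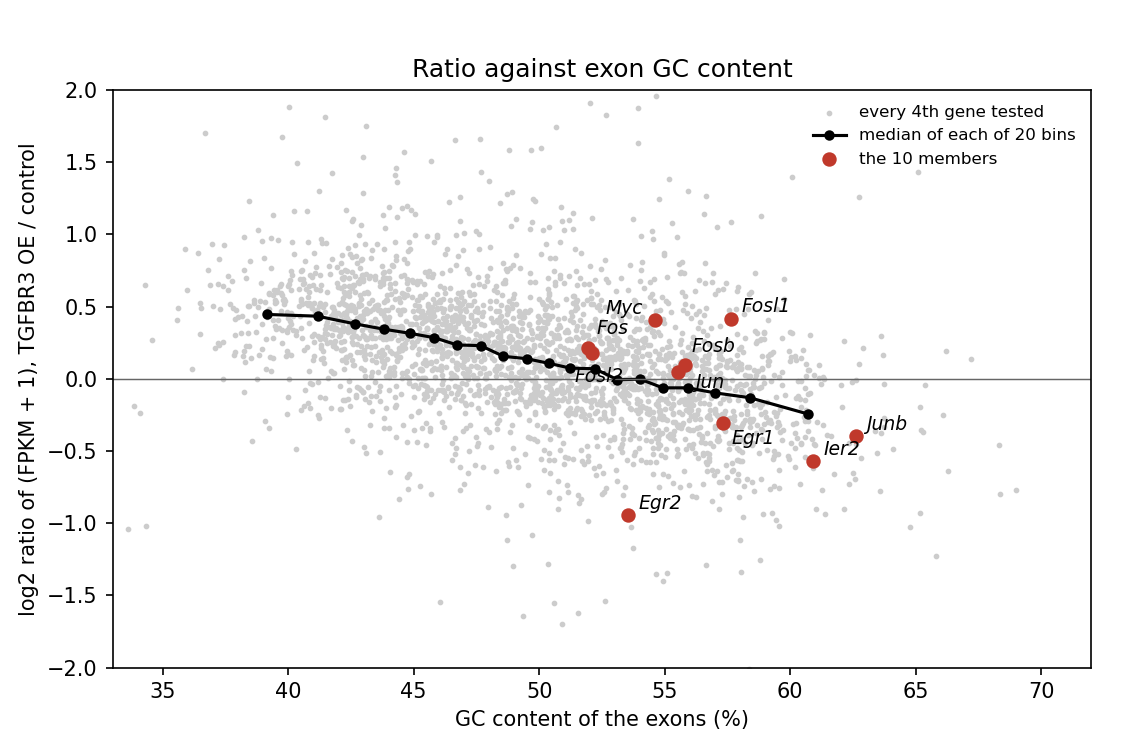
Log2 ratio of (FPKM + 1) against the GC content of the exons, with every 4th gene tested in gray, the median of 20 GC bins as a black line and the 10 members in red, on a vertical axis cut at -2 and 2. Junb and Ier2 lie near the right end of the falling line, whose last bin is at -0.25, while Egr2 (-0.94) lies far below the line and Fosl1 (0.42) and Myc (0.41) above it.

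Gene structure, which the choice by symbol did not use, varied among the members. Jun, Junb and Ier2 have a single exon in their longest coding transcript (GENCODE M21), 3 of 10 against 2.79% of 10093 coding genes tested. At least 1 AUUUA pentamer, the core of AU-rich elements that mark mRNAs for decay, stood in the 3′ UTR of 9 of the 10, beside 68.7% of those coding genes. Fosl2 had 8, Fos and Jun 4 each, Egr2 3 and Ier2 0. Per kilobase of 3′ UTR the members held 1.99 pentamers and all coding genes 1.72, so their density was close to the background. At most 0.41% of their 31-base words, in Egr2, occurred in transcripts of another gene. Of the 10 annotated spans, 3 overlapped a gene on the opposite strand, and although the libraries were made with a strand-marking kit, whether the counting used strand is not given in the sources used here. Junb overlaps Prdx2, which was also lower (-0.54, 95% CI -0.56 to -0.51). Fosl1 overlaps Ccdc85b, which was lower (-0.38) where Fosl1 was higher. Jun overlaps the antisense RNA Junos, with 303 and 376 counts. The part of these neighbors in the members' counts was not tested.

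Other immediate early genes, a list of 24 compiled with earlier results of these data known, spread widely in both directions. Of 21 averaging 1 FPKM or more, 1 was 2-fold lower (Klf2) and 1 was 2-fold higher (Plk2), beside 1.03% and 3.14% of all genes tested. At 1.5-fold, 3 were lower and 7 were higher, beside 4.91% and 13.3%. The median log2 ratio was 0.36, beside 0.14 for all genes tested. Klf2, a Krüppel-like factor known to restrain adipogenesis, was at 4.20 and 13.3 FPKM, or -1.46 in log2 ratio (95% CI -1.58 to -1.35) and -1.22 once the GC trend was taken out. Plk2, a stress-inducible kinase and p53 target, had 62.8 and 30.5 FPKM, a log2 ratio of 1.02 (95% CI 0.99 to 1.05), or 0.79 with the GC trend removed. Maff, a small MAF protein, and Rhob, a small GTPase, were lower at -0.90 and -0.82, and Gem, a GTPase, and Ier5, a serum-induced regulator, were higher at 0.95 and 0.76. The 10 members thus lay inside the range of their wider class, with Egr2 between Maff and Klf2.

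**Figure D4:**
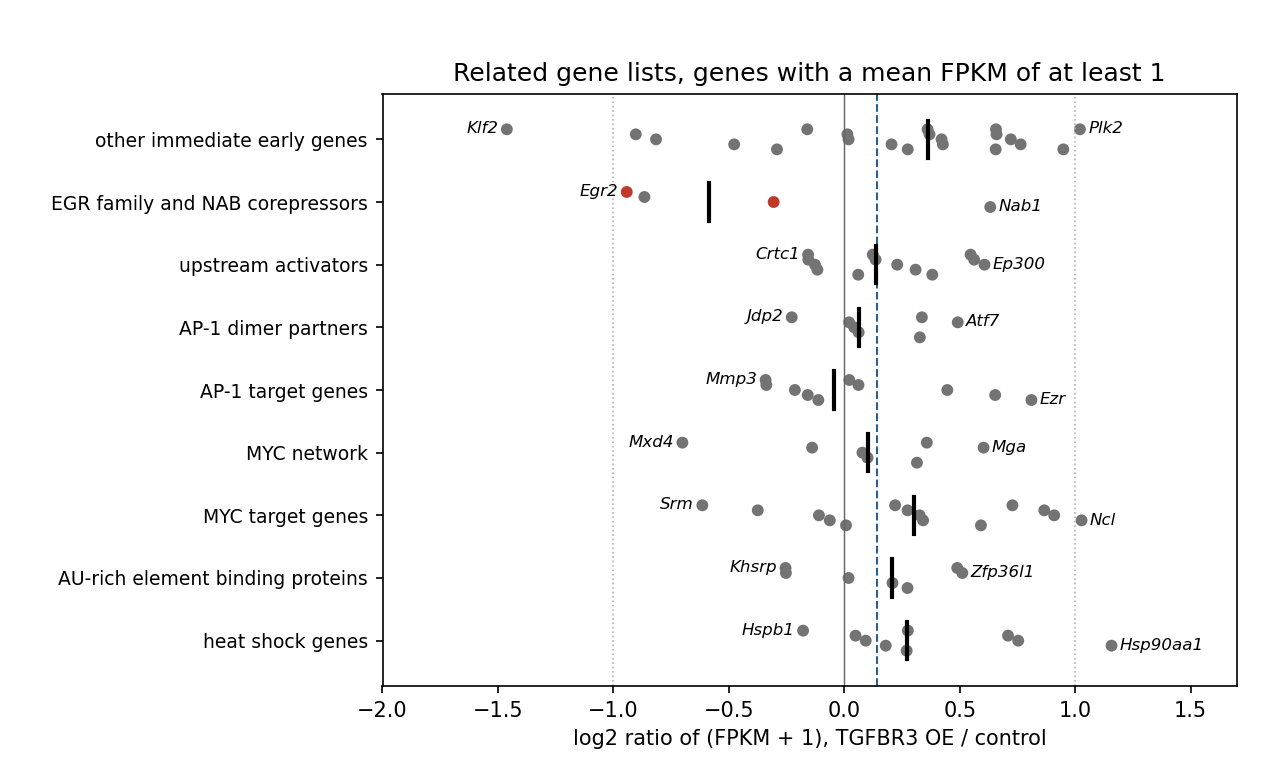
Log2 ratios in 9 related lists, for genes averaging 1 FPKM or more, with members of the 10 in red, list medians as black bars, the median of all genes tested (0.14) as a dashed line and 2-fold as dotted lines. The EGR and NAB list has the lowest median (-0.59), from 4 genes, and the medians of the other lists lie between -0.05 and 0.36.

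The median of the factors that switch these genes on was close to that of all genes, with some members of the list well above it. Of 15 upstream activators (SRF, its ternary complex and MRTF partners, CREB factors, and the coactivators CBP and p300), 13 averaged 1 FPKM or more, none was 2-fold changed, 1 (Ep300) was 1.5-fold higher and their median was 0.14. Srf was at 19.9 and 19.1 FPKM, giving a log2 ratio of 0.06 (95% CI 0.00 to 0.12). Elk1, a target of ERK, was at -0.16, and Ep300 (0.61), Crem (0.56) and Crebbp (0.55) had the largest values. With the GC trend removed these genes were at 0.38, 0.13 and 0.44. Ep300 was short of 1.5-fold there and also when centred (0.48). RNA levels do not show the phosphorylation by which these factors are mainly controlled. Of 10 other genes whose proteins can pair with FOS or JUN or are close to them, 7 averaged 1 FPKM or more. None of these 7 passed 1.5-fold in either direction, and their median was 0.06, with Atf7 at 0.49 and Jdp2 at -0.23. Batf2, below that level at 0.95 and 0.1 FPKM from 164 and 25 counts, was higher, at 0.83 (plain ratio 3.25). Batf had 5 and 5 counts and Batf3 had 0 and 6.

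Genes downstream of AP-1 lay on both sides of 0. Most of those downstream of MYC lay above it, as did 7079 of the 11213 genes tested. Of 13 AP-1 target genes, 10 averaged 1 FPKM or more, with 5 below 0, 5 above it and a median of -0.05, and 7 below and 3 above when centred. At 1.5-fold, 2 were higher and none was lower, beside 13.3% and 4.91% of all genes tested. The genes called higher were Ezr, at 9.91 and 5.22 FPKM (0.81), and Cd44, a hyaluronan receptor, at 59.7 and 37.6 FPKM (0.65). With the GC trend removed they were at 0.82 and 0.34. Plaur was at 0.45, Mmp3, a matrix protease, at 40.1 and 51.1 FPKM (-0.34), and Ccnd1, the G1 cyclin, at -0.34. Under a mean FPKM of 1, Mmp13 had 251 and 64 counts and Mmp9 had 24 and 117. For MYC, 14 target genes had a median of 0.30, with 10 above 0 and 4 below (9 and 5 when centred). Of these, 5 were 1.5-fold higher and 1 was 1.5-fold lower, beside the same 13.3% and 4.91%. At 2-fold, 1 (Ncl) was higher, beside 3.14% of all genes tested. Ncl, Nop56 and Npm1, which act in the nucleolus, and Eif4e, the cap-binding factor, were higher at 1.03, 0.87, 0.73 and 0.91, and Srm, spermidine synthase, was lower at -0.61. With the GC trend removed the median was 0.19, and Ncl and Nop56 stayed past 1.5-fold at 0.65 and 0.76. Eif4e (0.53), Npm1 (0.30), Nop58 (0.16, from 0.59) and Srm (-0.37) were short of it. In the MYC network, Max was level (0.08), and Mxd4, whose protein competes with MYC for MAX, was lower, at 12.1 and 20.3 FPKM (-0.70, 95% CI -0.74 to -0.66).

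Proteins that bind AU-rich elements and heat shock genes are given beside the members, since immediate early mRNAs are known for fast decay and for stress induction. Of 8 genes for AU-rich element binding proteins, 7 averaged 1 FPKM or more, none was 1.5-fold changed and the median was 0.21, or -0.07 with the GC trend removed. Zfp36, which encodes tristetraprolin, was at 7.56 and 7.45 FPKM (0.02), and its relative Zfp36l1 was at 0.51. Of 9 heat shock genes, 3 were 1.5-fold higher, beside 13.3% of all genes, and none was 1.5-fold lower. One of them, Hsp90aa1, was 2-fold higher (1.16, 95% CI 1.13 to 1.18), but was short of 2-fold with TMM factors (0.94) or the GC trend removed (0.87). Hsph1 and Hspd1, also called 1.5-fold higher, were at 0.52 and 0.55 with the GC trend removed, short of that threshold. The median of the list was 0.27, with 8 genes above 0, or 6 when centred, and 0.40 with the GC trend removed. The inducible Hspa1a and Hspa1b were at 0.28 and 0.27. Their part in the values of the members was not tested.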

How the data were processed

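RNA of 1 library per condition was measured. Per gene, the tables deposited by the authors hold a raw count and an FPKM, the count scaled by gene length and by a library total and rounded to 2 decimals. The study's methods name STAR and FeatureCounts on mm10, whereas the submitters' processing notes name cutadapt 1.9, HISAT2 2.2.1, StringTie 2.1.6, DESeq2 and edgeR, and the annotation release is not given in the sources used here. Another library total shifts all genes together.

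The log2 ratio of (FPKM + 1) was computed for all 26082 genes, and genes averaging 1 FPKM or more were called at 2-fold, since 1 library per condition allows no test. Intervals are exact 95% Clopper-Pearson intervals on the share of counts, or Poisson intervals on a level, and cover counting error only. Differences between the log2 ratios of a pair of genes carry intervals from the log odds ratio. Coordinates, exon GC and lengths came from GENCODE M21, matched for 26012 genes. Trends were removed as medians in 20 bins. TMM factors came from edgeR 4.0.16 in R 4.3.3, and the rest was done in Python 3.11.15. The ratios, intervals and trend removal were tested on simulated data. The members and lists were chosen with earlier results of these data known. All 10 members, Tgfbr3, up to 6 genes per list by size of ratio, Jund, Egr3 and Srf were to be named. Adgre1, Tyrobp, Egr4, Elk1, Max, Zfp36 and the 3 overlapping genes fall outside that rule and were named after their values were seen. The same holds for Mmp9, Mmp13, Batf, Batf2 and Batf3. Pax7 and Myod1 were not analysed here, and 1 gene of the lists is not reported here.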

Additional observations from a re-analysis of the deposited data

How the results depend on the processing

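Across the 10 ways of computing the ratio, Egr1, Egr2, Ier2 and Junb were below 0 in all 10, from -0.52 to -0.21 for Egr1, -1.40 to -0.94 for Egr2, -0.80 to -0.32 for Ier2 and -0.65 to -0.11 for Junb. Fos, Fosl1 and Myc were above 0 in all 10, from 0.036 to 0.31, 0.17 to 0.54 and 0.16 to 0.50, with the lowest values under median-of-ratios size factors. The scaling between libraries turned the others. Centred on the median gene, Fosb was at -0.029 and Jun at -0.078. With TMM factors Fosl2 was at -0.036 and Jun at -0.17, and with median-of-ratios size factors they were at -0.067 and -0.20. With the length trend removed, Fosb, Fosl2 and Jun were at -0.10, -0.079 and -0.045. The median of the 9 members was -0.078 centred, -0.17 with TMM factors, -0.20 with size factors, 0.11 with the GC trend removed and -0.079 with the length trend removed. The count of members at least 2-fold lower, 0 as reported, was 1 (Egr2) with a pseudocount of 0.1, with none, centred, by CPM, with TMM or size factors, with the length trend removed, and, in a combination chosen after seeing the data, with no pseudocount and the GC trend removed. It was also 1 at 1.5-fold and 0 at 4-fold, and no member was 2-fold higher under any of these. Of all genes called at 2-fold, 75.2% were higher as reported, 59.4% centred, 50.5% with TMM factors and 46.2% with size factors. The share of all genes called lower ranged from 0.48% with no filter to 2.28%, and higher from 1.41% to 6.53%. The cause of these shifts was not tested. No paired analysis was possible because each condition has 1 library, which also leaves no replicate to omit.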
